A study of Danio rerio with 4 samples.

Results

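Krüppel-like factors (Klf proteins) are zinc finger transcription factors, and klf2a, klf2b and klf4 are genes that endothelial cells switch on under blood flow. The force of flowing blood is sensed at the cell surface, in part by Piezo1, a mechanically gated cation channel. The signal runs through the kinases Mekk3, Mek5 and Erk5 to Mef2 factors at the klf2 genes. Edn1, the vasoconstrictor peptide endothelin 1, is an endothelial product whose gene is repressed by KLF2 in mammalian cells. The members described here are 5 rows of the deposited table, klf2a, klf2b, KLF4, edn1 and PIEZO1, whose symbols equal 5 of 7 listed names without regard to case, out of 31951 rows in all. The table had no row under the exact symbols klf6a or klf11b. The row KLF6 was read as klf6a because klf6 is a RefSeq synonym of that gene alone, and klf6b has a row of its own. The symbol KLF11 stood on 2 rows, ENSDARG00000013794 and ENSDARG00000030844, and which of them is klf11b was not settled, so both are given.

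RNA was sequenced from endothelial cells sorted out of dissociated zebrafish of 2 genotypes, kdrl:mcherry;kdrl:cxcr1 fish, called kdrl:cxcr1 here, and fish with kdrl:mcherry only, called wild-type. All fish thus carried kdrl:mcherry, a red fluorescent reporter under the promoter of the endothelial VEGF receptor gene kdrl, and the same promoter drives the chemokine receptor gene cxcr1 in the first group. The 4 libraries came from 2 independent clutches, each represented by 1 library of each genotype, and the clutch is the replicate. The labels give embryos as the starting material, no stage, and no number of animals per library. Values are FPKM, fragments scaled to transcript length and library size, so levels of different genes can be compared as far as the transcript lengths used are right. Depth is unknown from FPKM, and no counting error is given. Where a pair of values is set against another pair, the first is kdrl:cxcr1 clutches 1 and 2 and the second is wild-type clutches 1 and 2.

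The libraries differed in ways that touch the values below. FPKM values summed to between 986557 and 1280970 per library, and 31.9% to 43.5% of rows were at 0. The row cxcr1 had 12.8 and 0 FPKM in the kdrl:cxcr1 libraries of clutches 1 and 2 and 8.14 and 0 FPKM in the wild-type libraries. A second row, CXCR1 (ENSDARG00000054975), had 0 and 8.21 FPKM in the kdrl:cxcr1 libraries and 3.89 and 0 FPKM in the wild-type libraries. Neither row separated the genotypes, and directions are between libraries as labelled. Endothelial markers were present in every library, with kdrl at 140 and 157 FPKM in the kdrl:cxcr1 libraries and 128 and 274 FPKM in the wild-type libraries. The 13 endothelial markers found, of 18 listed, summed to 614 and 741 FPKM in the kdrl:cxcr1 libraries and 602 and 1022 FPKM in the wild-type libraries. In bulk samples, fewer cells of a type and less RNA per cell cannot be told apart.

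The klf2 paralogs were abundant in all 4 libraries. klf2a (ENSDARG00000042667) had 47.7 and 73.7 FPKM in the kdrl:cxcr1 libraries of clutches 1 and 2 and 81.6 and 169 FPKM in the wild-type libraries of clutches 1 and 2. The groups did not overlap, with wild-type clutch 2 far above the other libraries. klf2b (ENSDARG00000040432) had 55.5 and 97.7 FPKM in the kdrl:cxcr1 libraries and 127 and 181 FPKM in the wild-type libraries, again without overlap. In both genes the clutch 2 library was above the clutch 1 library of the same genotype.

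The members were chosen by known role and with their FPKM and genotype ratios in these same 4 libraries already known, so the differences of these genes between genotypes are given as a description with no test. The ratio of kdrl:cxcr1 to wild-type FPKM was 0.585 in clutch 1 and 0.435 in clutch 2 for klf2a. For klf2b the ratio was 0.437 in clutch 1 and 0.54 in clutch 2. The paralogs thus differed in which clutch showed the lower ratio. On the log2(FPKM + 1) scale the genotype difference, kdrl:cxcr1 minus wild-type, was -0.98 (SE 0.47) for klf2a and -1.03 (SE 0.41) for klf2b. Each SE here and below is from the limma fit, which pools spread over genes and fits 1 factor at a time. For genotype it counts the shift between clutches as spread. It is thus not the spread of the differences within clutches, which were -0.76 and -1.19 for klf2a. The median gene of the table stood at 0.16 on that scale, and at -0.03 after median-of-ratios scaling of the libraries. Relative to the median gene, klf2a was at -1.13 and klf2b at -1.19. Wild-type clutch 2 decided much of the klf2a value, which was -0.45 without it, against -0.78 for klf2b. Leaving out the other wild-type library gave -1.5 for klf2a and -1.29 for klf2b. Leaving out kdrl:cxcr1 clutch 1 gave -0.67 for klf2a and -0.63 for klf2b, and leaving out kdrl:cxcr1 clutch 2 gave -1.28 and -1.43.

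**Figure D1:**
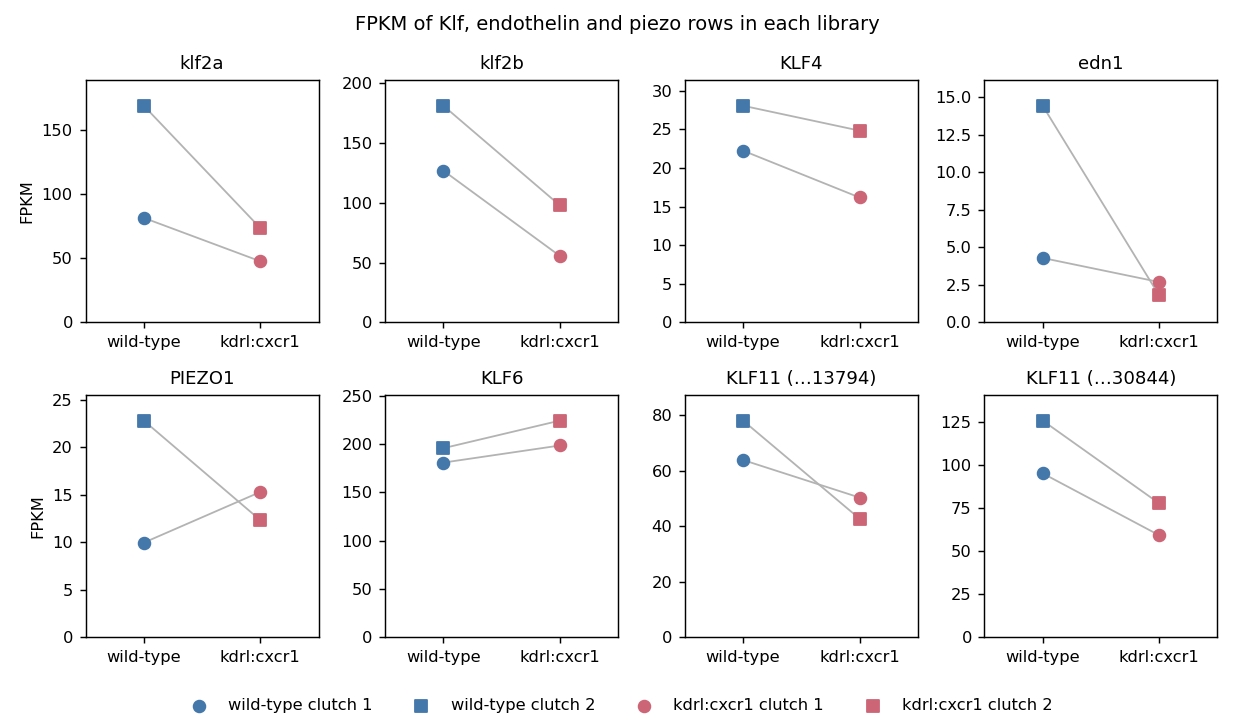
FPKM (y axis, from 0) of each gene in the 4 libraries, wild-type at left and kdrl:cxcr1 at right; circles are clutch 1, squares are clutch 2, and grey lines join libraries of 1 clutch. The klf2a, klf2b, edn1 and both KLF11 panels have both kdrl:cxcr1 points below both wild-type points, and KLF6 has them above. The lines of PIEZO1 slope in opposite directions.

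Levels of the paralogs could be compared within a library. klf2b was above klf2a in 4 of 4 libraries, by 1.16-fold and 1.33-fold in kdrl:cxcr1 clutches 1 and 2 and by 1.55-fold and 1.07-fold in wild-type. The mean log2 ratio of klf2b to klf2a was 0.34 ± 0.24 (SD, n = 4). An error in the transcript length used for either gene would shift this log2 ratio alike in all 4 libraries. The same sign in 4 of 4 libraries therefore does not settle which paralog was the more abundant. The genotype difference of this log2 ratio had opposite signs in the clutches, -0.42 in clutch 1 and 0.31 in clutch 2. The ratios of the genotypes overlapped.

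KLF4 (ENSDARG00000079922), a further flow-induced factor that is also expressed in epithelia, was lower in level than the klf2 genes. It had 16.2 and 24.9 FPKM in the kdrl:cxcr1 libraries and 22.3 and 28.1 FPKM in the wild-type libraries. The groups overlapped, since kdrl:cxcr1 clutch 2 lay above wild-type clutch 1. The ratio of kdrl:cxcr1 to wild-type was 0.727 in clutch 1 and 0.885 in clutch 2, and the log2 difference was -0.30 (SE 0.41). Without kdrl:cxcr1 clutch 1 that difference was -0.0086. klf2a exceeded KLF4 by 2.95-fold and 2.97-fold in kdrl:cxcr1 and by 3.67-fold and 6.03-fold in wild-type.

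KLF6 (ENSDARG00000029072), a broadly expressed factor of the family, had the highest mean level of any Klf row and varied least among the 8 rows shown. It had 199 and 224 FPKM in the kdrl:cxcr1 libraries and 181 and 196 FPKM in the wild-type libraries. The kdrl:cxcr1 values lay just above the wild-type values, with ratios of 1.1 in clutch 1 and 1.15 in clutch 2. Its log2 difference of 0.16 (SE 0.30) was that of the median gene, 0.0082 above it, and became -0.065 after median-of-ratios scaling. KLF6 was 3.58-fold and 2.3-fold above klf2b in kdrl:cxcr1, and 1.43-fold and 1.08-fold above it in wild-type.

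The 2 KLF11 rows, genes of a factor induced by TGF-beta in mammals, lay between KLF6 and KLF4. ENSDARG00000030844 had 59.2 and 77.7 FPKM in the kdrl:cxcr1 libraries and 95.1 and 126 FPKM in the wild-type libraries, with a ratio near 0.62 in each clutch (0.622 and 0.618). ENSDARG00000013794 had 50.3 and 42.7 FPKM in the kdrl:cxcr1 libraries and 63.8 and 78 FPKM in the wild-type libraries, with ratios of 0.788 and 0.547. Neither row overlapped between genotypes. The log2 differences were -0.68 (SE 0.34) and -0.60 (SE 0.33).

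Across the family, 21 rows carried a Klf symbol and 20 passed the low-value filter of at least 1 FPKM in at least 2 libraries. By mean FPKM over the 4 libraries the order was KLF6, klf2b at 115, klf2a at 93.1, KLF11 (ENSDARG00000030844) at 89.4, KLF11 (ENSDARG00000013794) at 58.7 and KLF3 at 45.1. The ranges of neighbours in this order overlapped throughout, and klf2a lay above the first KLF11 row in wild-type clutch 2 only. klf2a and klf2b together made up 16.8% and 23.4% of the summed Klf FPKM in kdrl:cxcr1 and 29.8% and 35.2% in wild-type. KLF6 made up 32.3% and 30.6% in kdrl:cxcr1 and 25.9% and 19.7% in wild-type. These shares are of 1 sum, so a lower share of one gene raises the others.

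Of the 20 Klf rows tested, 7 were lower in kdrl:cxcr1 in both clutches, 8 were higher in both and 5 were mixed. Over all 17723 genes tested, 21% were lower in both clutches and 36% were higher in both. Without overlap between genotypes, 5 Klf rows were lower and 6 were higher, where 13.6% and 26% of all tested genes were. The 8 higher rows were KLF6, both KLF12 rows, both KLF7 rows, klf13, KLF9 and klf17. The 7 lower rows were klf2a, klf2b, KLF4, both KLF11 rows, klf1 and KLF15. Of these, klf2a, klf2b and KLF4 belong to names listed with genotype ratios in these libraries known, as does whichever KLF11 row is klf11b. The count of lower rows is therefore not evidence about the family. In the list of other Klf genes, 9 of 18 names were found and tested. klf13 had 18.5 and 13.5 FPKM in the kdrl:cxcr1 libraries and 7.85 and 5.01 FPKM in the wild-type libraries, and KLF9, a factor induced by glucocorticoids, had 11.1 and 21.5 FPKM against 8.11 and 1.9 FPKM. KLF15 had the opposite order, with 2.08 and 3.57 FPKM in the kdrl:cxcr1 libraries and 4.48 and 11.5 FPKM in the wild-type libraries. klf17 overlapped between genotypes, at 3.17 and 8.44 FPKM against 2.22 and 3.71 FPKM. KLF3 and KLF8, named after their values were seen, differed in opposite directions in the clutches. klf1, the erythroid Klf gene, had 6.52 and 9.99 FPKM against 7.67 and 10.6 FPKM.

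**Figure D2:**
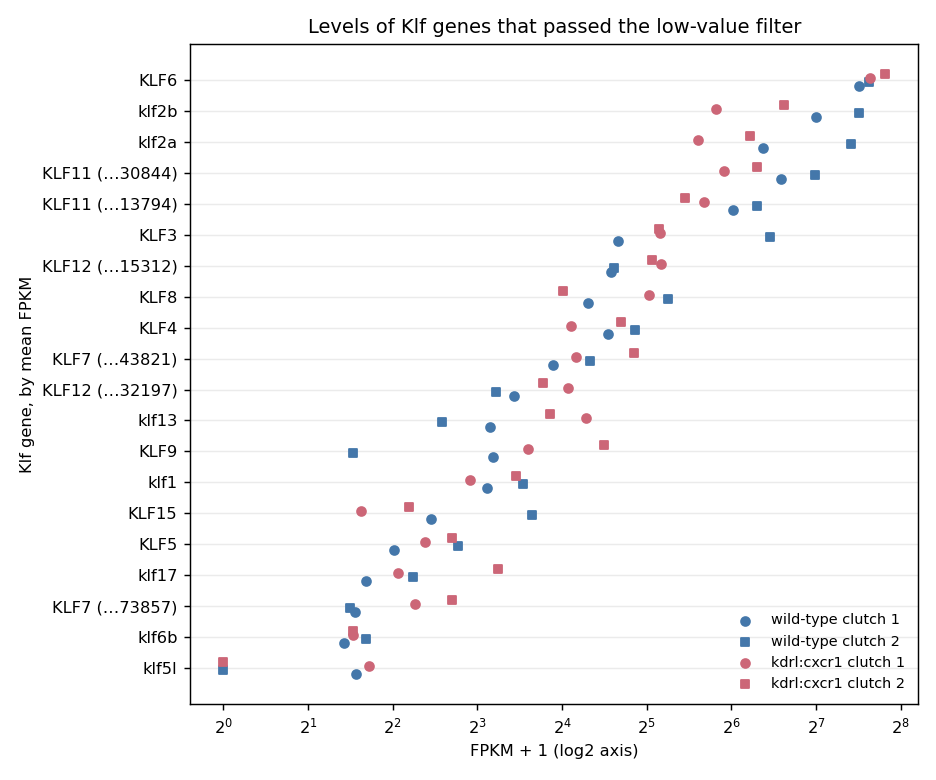
FPKM + 1 on a log2 x axis for the 20 Klf rows that passed the filter, ordered by mean FPKM; colours are genotypes and shapes are clutches. Rows klf2a and klf2b spread widely with the kdrl:cxcr1 points at the left, while the 4 KLF6 points lie between 181 and 224 FPKM.

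edn1 (ENSDARG00000036912) was low in level. It had 2.69 and 1.79 FPKM in the kdrl:cxcr1 libraries and 4.29 and 14.4 FPKM in the wild-type libraries. The groups did not overlap, but wild-type clutch 2 stood apart at 3.36-fold above wild-type clutch 1. The ratio of kdrl:cxcr1 to wild-type was 0.626 in clutch 1 and 0.124 in clutch 2. The log2(FPKM + 1) difference was -1.49 (SE 0.72), and -0.72 without wild-type clutch 2. At a pseudocount of 5 it was -0.90, since the pseudocount is as large as most edn1 values.

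Among the other genes of the endothelin system, edn2, a second endothelin gene, had 7.05 and 22.9 FPKM in the kdrl:cxcr1 libraries and 34.1 and 63 FPKM in the wild-type libraries. edn2 exceeded edn1 in every library, by 2.63-fold to 12.8-fold. The converting enzyme genes ECE1 (8.45 and 6.3 FPKM against 8.27 and 16.2 FPKM) and ECE2 (11.3 and 11.3 FPKM against 19 and 15.2 FPKM) were of modest level. edn3b, another endothelin gene, was low, at 1.62 and 0 FPKM against 2.08 and 0 FPKM. The receptor row EDNRA, matched to ednraa by a RefSeq synonym, was high at 582 and 407 FPKM in the kdrl:cxcr1 libraries and 527 and 353 FPKM in the wild-type libraries. Both clutch 1 values lay above both clutch 2 values, but the clutch difference was not called (limma adjusted p = 0.755). Within each clutch kdrl:cxcr1 was slightly higher, with ratios of 1.1 and 1.15. The 2 EDNRB rows, looked at after the list was read, were at 4.97 FPKM or less in every library and at 0 in both clutch 2 libraries.

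EDNRA is known in other vertebrates from smooth muscle and mesenchyme, and mesenchymal markers were present in these sorted cells. The 6 mesenchyme and cartilage markers found, of 10 listed, summed to 658 and 674 FPKM in the kdrl:cxcr1 libraries and 701 and 455 FPKM in the wild-type libraries, with PDGFRB at 0 in every library. Their part in the EDNRA level was not tested.

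PIEZO1 (ENSDARG00000076870) had 15.3 and 12.3 FPKM in the kdrl:cxcr1 libraries and 9.95 and 22.8 FPKM in the wild-type libraries. Both kdrl:cxcr1 values lay between the wild-type values. The ratio of kdrl:cxcr1 to wild-type was 1.54 in clutch 1 and 0.54 in clutch 2, so the channel gene had no common direction. The log2 difference was -0.13 (SE 0.52), 0.43 with wild-type clutch 2 left out and 0.013 with kdrl:cxcr1 clutch 2 left out. PIEZO2, a related channel gene, had 6.58 and 4.71 FPKM against 2.83 and 5.26 FPKM.

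Counted together, 4 of the 5 members, all but PIEZO1, were lower in kdrl:cxcr1 in both clutches. Among all tested genes this held for 21%, as given for the Klf rows. Of the 5, klf2a, klf2b and edn1 did not overlap between genotypes with kdrl:cxcr1 lower, where 13.6% of all tested genes did so, and 26% did so with kdrl:cxcr1 higher. These counts follow from how the members were chosen and are not evidence of a difference. All 5 members passed the low-value filter.

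The FPKM of endothelial markers also differed between the libraries. Levels were therefore also set against kdrl and against cdh5, the gene of the endothelial cadherin, in the same library. klf2a was 0.342- and 0.471-fold of kdrl in kdrl:cxcr1 and 0.636- and 0.618-fold in wild-type. Relative to cdh5 it was 0.501- and 0.576-fold in kdrl:cxcr1 and 0.883- and 0.952-fold in wild-type. klf2b was 0.397- and 0.624-fold of kdrl in kdrl:cxcr1 and 0.989- and 0.662-fold in wild-type. Neither gene overlapped between genotypes on either reference, although the log2 ratio of klf2b to kdrl differed between genotypes by only -0.084 in clutch 2. These ratios reuse the klf2 values that were known when the members were chosen, so they are a description only. The share of all genes without overlap on such ratios was not computed. The part of endothelial content in the differences was not tested. KLF4 overlapped between genotypes on both references, and its log2 ratio to kdrl differed by -0.58 in clutch 1 and 0.63 in clutch 2.

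**Figure D3:**
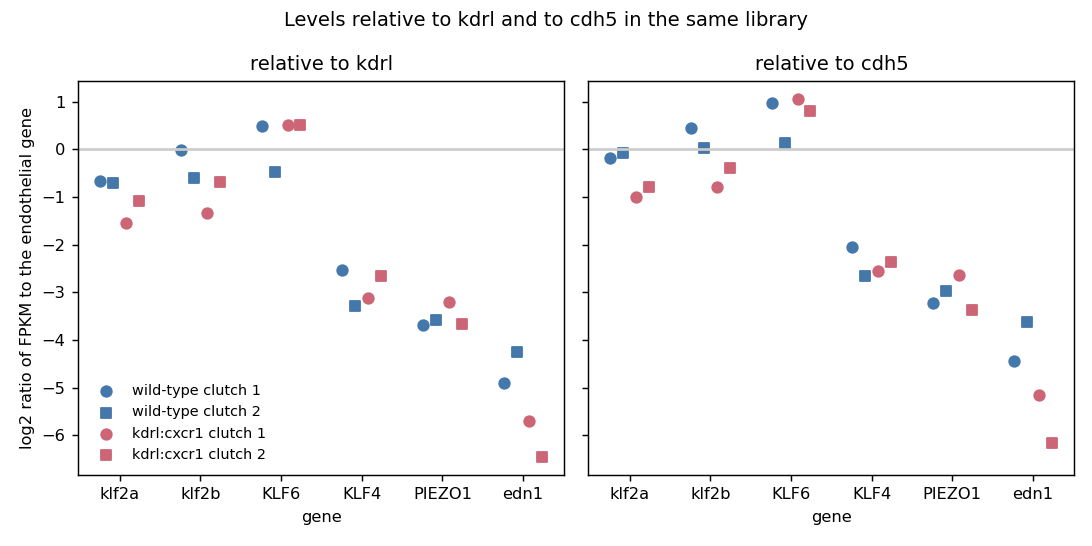
Log2 ratio of each gene's FPKM to that of kdrl (left) and cdh5 (right) in the same library; colours are genotypes and shapes are clutches. For klf2a, klf2b and edn1 both kdrl:cxcr1 points lie below both wild-type points on both references; for KLF4 and PIEZO1 they do not.

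The clutch was not used to choose the members, and its difference was tested with limma over the same 17723 genes, 2 clutch 2 against 2 clutch 1 libraries. Of all genes, 3 passed at an adjusted p of 0.05, which is 0.0169%, and 9.2% had an unadjusted p under 0.05. The count of 3 was 0 with either clutch 1 library left out, 11 without kdrl:cxcr1 clutch 2 and 15 without wild-type clutch 2. None of the 5 members passed, and 0 had an unadjusted p under 0.05. klf2a had the smallest adjusted p among them, with a log2 difference of 0.83 (SE 0.53; limma adjusted p = 0.804), being higher in clutch 2 by 1.54-fold in kdrl:cxcr1 and by 2.07-fold in wild-type. klf2b stood at 0.66 (SE 0.55; limma adjusted p = 0.891) and KLF4 at 0.46 (SE 0.39; limma adjusted p = 0.9). KLF4 was the 1 member whose clutches did not overlap with clutch 2 higher, against 15.5% of all genes.

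The wider flow pathway was followed in 7 lists of genes other than the members, with 83 matched rows for 127 names and 80 rows tested for genotype. In the limma fit 2 of 17723 genes passed at an adjusted p of 0.05, which is 0.0113% (0 with the clutch as a block), and 6.8% had an unadjusted p under 0.05. None of the 80 passed (smallest limma adjusted p = 0.699), and 8 had an unadjusted p under 0.05. Of the 80, 27 were lower in kdrl:cxcr1 in both clutches (33.8%), 18 were higher in both (22.5%) and 35 were mixed. Over all tested genes 21% were lower in both clutches and 36% were higher in both. The same shares are the ones to set beside the counts of each list below. These lists were written with earlier results of the same libraries known.

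Flow sensors came first in the pathway, and 10 rows were tested, 2 lower and 3 higher in both clutches. GNAQ, a G protein subunit gene, had 6.48 and 13.6 FPKM in the kdrl:cxcr1 libraries and 1.87 and 1.57 FPKM in the wild-type libraries. TLN1, the talin gene that links integrins to actin, had 56.9 and 82.6 FPKM against 32.7 and 41.4 FPKM. The polycystin channel gene PKD2 had 5.21 and 7.02 FPKM against 9.52 and 13.7 FPKM, and gna11a had 18.4 and 3.9 FPKM against 19.7 and 13 FPKM. The list median was -0.013, against 0.16 for all genes.

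The kinase route to klf2 and its restraint by the cerebral cavernous malformation complex gave 15 tested rows, 5 lower and 3 higher in both clutches, with a median of -0.0031. CCM2, an adaptor of that complex, had 48.4 and 47.8 FPKM in the kdrl:cxcr1 libraries and 26.2 and 15.1 FPKM in the wild-type libraries (log2 difference 1.23, SE 0.41). heg1, its transmembrane partner, had 6.84 and 6.3 FPKM against 12.6 and 26.6 FPKM (-1.36, SE 0.52). HDAC5, a deacetylase that holds Mef2 factors inactive, had 11.8 and 14.4 FPKM against 5.34 and 3.26 FPKM. prkd2, a protein kinase D gene, had 19.7 and 23.4 FPKM against 33.4 and 49.3 FPKM. None of these 4, named for the smallest unadjusted p of the list, overlapped between genotypes, and none passed the test. In the whole list of 15 rows, 4 did not overlap with kdrl:cxcr1 lower and 2 with kdrl:cxcr1 higher. Over all tested genes these shares were 13.6% and 26%. The kinase genes of the route were named after their values were seen. MAP3K3 (Mekk3) had 10.9 and 14.6 FPKM against 12.6 and 19 FPKM, and MAPK7 (Erk5) had 3.43 and 3.36 FPKM against 4.43 and 5.32 FPKM. MAP2K5 (Mek5) had 6.08 and 6.25 FPKM against 6.16 and 2.77 FPKM. Its log2 difference was -0.017 in clutch 1 and 0.94 in clutch 2, so the kinase genes had no common direction.

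Flow and Klf2 target genes gave 13 tested rows, 3 lower and 2 higher in both clutches, with a median of -0.36. S1PR1, a sphingosine 1-phosphate receptor gene, had 25.3 and 24 FPKM in the kdrl:cxcr1 libraries and 82.2 and 67.2 FPKM in the wild-type libraries. TFPI, an inhibitor of coagulation, had 23.4 and 15.8 FPKM against 41.2 and 31.4 FPKM. WNT9B, a Wnt ligand gene that depends on klf2a in the zebrafish endocardium, had 0.384 and 0 FPKM against 2.39 and 1.89 FPKM. HEY2, a Notch target gene, had 15.9 and 12.5 FPKM against 8.84 and 8.6 FPKM. thbd, the thrombomodulin gene and a KLF2 target in mammals, was named after its values were seen and had 10.5 and 7.59 FPKM against 8.03 and 37.4 FPKM. No target row passed the test.

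The Yap and Taz list, a second route of mechanical signals, had 10 tested rows, 5 lower and 1 higher in both clutches, and a median of -0.17. Its target gene CCN1 had 17.4 and 31.9 FPKM in the kdrl:cxcr1 libraries and 76.4 and 53.2 FPKM in the wild-type libraries, and ccn2b had 11 and 3.76 FPKM against 14.1 and 15.6 FPKM. The genes of the Yap partner tead1a (23.7 and 41.6 FPKM against 23.1 and 17.1 FPKM) and of the angiomotin family member amotl2b (12.1 and 13.1 FPKM against 12.2 and 6.42 FPKM) did not share that order. The endothelin list had 5 tested rows (edn2, edn3b, ECE1, ECE2 and EDNRA), 2 lower and 1 higher in both clutches, and a median of -0.55.

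**Figure D4:**
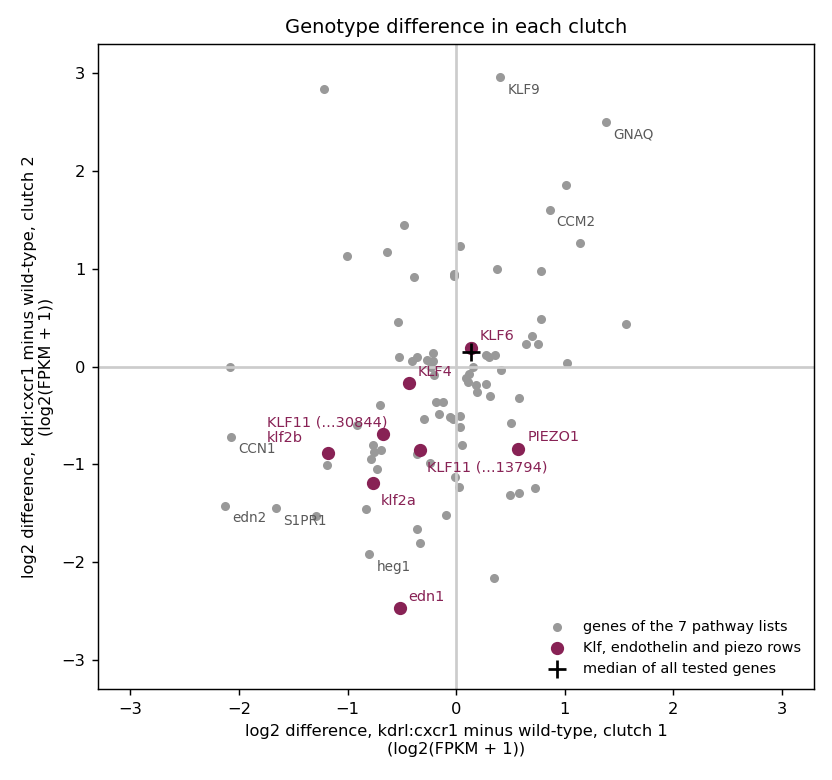
Log2(FPKM + 1) difference, kdrl:cxcr1 minus wild-type, in clutch 1 (x axis) and clutch 2 (y axis); grey points are the 80 tested genes of the 7 pathway lists, dark points are the members with the KLF6 and KLF11 rows, and the cross is the median of all tested genes. The dark points except PIEZO1 and KLF6 are negative on both axes, edn1 lowest in clutch 2.

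Immediate early genes, which many cells switch on during tissue dissociation, are a group with which klf2, klf4 and klf6 genes are often induced. All 18 rows found, of 23 names, were tested, 8 lower and 5 higher in kdrl:cxcr1 in both clutches, with a median of -0.19. Their FPKM summed to 3849 and 5636 in kdrl:cxcr1 and 4549 and 7201 in wild-type. This sum was lower in kdrl:cxcr1 in each clutch and higher in clutch 2 in each genotype. Its largest parts were FOS, at 1164 and 1197 FPKM against 1494 and 2232 FPKM, and JUN, at 881 and 1605 FPKM against 1131 and 1496 FPKM. The median log2 difference of the list was -0.36 in clutch 1 but 0.079 in clutch 2, so the sum does not stand for the typical gene. The lowest and the highest library of the sum, kdrl:cxcr1 clutch 1 and wild-type clutch 2, were also the lowest and the highest for klf2a and klf2b. The libraries between them differed in order. For the sum kdrl:cxcr1 clutch 2 lay above wild-type clutch 1, and for klf2a and klf2b it lay below. DUSP1 had 133 and 159 FPKM against 226 and 277 FPKM, JUND 64.8 and 90.5 FPKM against 123 and 137 FPKM, and FOSL1 89.9 and 187 FPKM against 207 and 377 FPKM. ier2b had the opposite order, with 42.6 and 50.5 FPKM against 13.7 and 37.1 FPKM. The part of this group in the klf values was not tested.

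Markers of other cell types also differed between the libraries, and KLF4 and KLF6 are not confined to endothelium. All 14 epidermal markers listed were found, and they summed to 922 and 611 FPKM in the kdrl:cxcr1 libraries and 1015 and 1248 FPKM in the wild-type libraries. krt8 alone had 386 and 503 FPKM against 295 and 496 FPKM. The median log2 difference of the epidermal list was -0.17 in clutch 1 and -2.65 in clutch 2, so this sum does not stand for the typical epidermal marker. The 10 erythroid markers found, of 13, summed to 6532 and 1484 FPKM against 3079 and 1635 FPKM, mostly from the globin row hbae3. Of the 10, 7 were higher in kdrl:cxcr1 in both clutches and without overlap, 2 were lower in both and hbae3 was mixed. Over all tested genes 36% were higher in both clutches and 26% did not overlap with kdrl:cxcr1 higher. The median log2 difference of the list was 0.94 above that of all genes, so the sum does not stand for the typical marker. The 19 rows of the neutrophil and macrophage list, which holds 16 names, summed to 1169 and 1772 FPKM against 687 and 957 FPKM, with ptprc at 0 throughout. The 14 liver, gut and yolk markers found, of 15, summed to 109 and 38.1 FPKM against 159 and 149 FPKM, with vtg2 at 0 throughout. The 8 muscle markers found, of 12, summed to 197 and 56.3 FPKM against 219 and 107 FPKM. The heart muscle genes MYL7, cmlc1 and nppa were at 0 in every library, while the endocardial factor gene NFATC1 had 27.2 and 50.1 FPKM against 30.8 and 61.3 FPKM. The part of these cells in the values of the klf genes and edn1 was not tested.

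Profiles most like those of the klf2 genes were sought over the 4 libraries, by the root mean square difference of centred log2(FPKM + 1) values among 6871 genes with a symbol and a mean of at least 10 FPKM. For klf2a the nearest included si:ch211-156j16.1 (0.051), C19H6orf62 (0.061) and EFNA1 (0.092), the last a gene of an ephrin ligand. For klf2b the 4 nearest were RGCC (0.033), a cell cycle regulator gene, si:dkey-53f14.5 (0.077), si:ch211-207l14.3 (0.095) and MGST1 (0.11). The paralogs differed from each other by 0.20, which placed klf2b 59th nearest to klf2a and klf2a 44th nearest to klf2b. Of the 6871 genes, 119 lay within 0.25 of klf2a and 92 within 0.25 of klf2b, so a near profile over 4 libraries does not single out a gene. The klf2 profiles hold the genotype ratios known when the members were chosen. That the nearest genes were also lower in kdrl:cxcr1 follows from the search and is no result.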

How the data were processed

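A low-input SMARTer kit was used for the libraries (labels' protocols). FPKM were deposited by the authors in a single table with 1 column per library. Cutadapt (version not given), TopHat2 2.0.11, Cufflinks 2.2.1 and genome build GRCz10 were used, per the submitters' processing notes. The sources used here do not give annotation, strand setting, filters or between-library scaling, so near-identical paralogs and overlapping genes are uncertain. A row at 0 can be a failed estimate.

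Symbols covered 26120 rows. List names were matched to symbols, then to RefSeq synonyms that fit a single row. Many list names with an a or b ending were not matched. The log2(FPKM + 1) values were fitted by limma 3.58.1 under R 4.3.3 (intensity trend, two-sided, Benjamini-Hochberg over 17723 genes, threshold 0.05), for genotype and for clutch. The smallest two-sided p of an exact permutation test of 2 against 2 libraries, with the clutch pairing ignored, is 0.333. Permuting within clutches would give a larger one. The limma p-values therefore rest on its pooled spread. Members and lists were chosen with earlier results of these data known. The naming rule took every member, up to 4 genes per pathway list by p, up to 4 per marker list by level, and the 4 nearest profiles; 1 gene that the rule names is not reported here. The fit was run on simulated data as a check of the code. The planted changes were larger, and the noise smaller, than in these libraries, so that run does not measure power here. The clutch pairs the samples by the labels, and deviations from group means correlated at 0.116 within clutches. Alternatives were pseudocounts, filters, scaling, no trend, the clutch as a block and leaving out each library. No protein or promoter sequences were used here.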

Additional observations from a re-analysis of the deposited data

Results flagged for a closer look

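A set of 84 rows held most of those named in the text other than the nearest profiles, together with the most abundant markers. Of the 84 rows, 14 had genotype differences of opposite sign in the clutches, which held for 40% of all tested genes. Some rows named in the text, such as JUN, MAP2K5 and the second CXCR1 row, also had opposite signs but were outside this set. Many of the 84 rows were named by smallest p or chosen with their ratios known, which favours the same sign in both clutches. The smaller share is therefore not a result about these genes. With 1 library per genotype and clutch, these differences between clutches were not tested. The value given is the log2 difference (kdrl:cxcr1 minus wild-type) in clutch 2 minus that in clutch 1. It was -1.41 for PIEZO1, which was 0.57 in clutch 1 and -0.84 in clutch 2. In the flow pathway it was -1.26 for ECE1, 0.95 for amotl2b, -1.12 for PIEZO2 and -2.51 for thbd, and among the Klf genes -1.8 for KLF3 and -1.96 for KLF8. Among endothelial markers it was -0.92 for kdrl, -0.51 for cdh5 and -0.45 for TIE1. Among markers of other cells it was -0.23 for HAND2, -1.32 for hbae3, 0.75 for RBP4 and -2.39 for actc1b.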

How the results depend on the processing

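The count of genes that differed by genotype was 2, and 0 with a pseudocount of 0.1, with no filter, with no intensity trend and with the clutch as a replicate block, and 0 with any 1 of the 4 libraries left out. The count by clutch was 3, and 1 with a pseudocount of 0.1, with no filter and with no trend, and 0 to 15 with 1 library left out. No member was among the genes called by clutch under any of these settings. The log2 difference of KLF6 turned to -0.065 under median-of-ratios scaling. That of PIEZO1 ranged from -0.69 to 0.43 with 1 library left out, and was above 0 without wild-type clutch 2 (0.43) or kdrl:cxcr1 clutch 2 (0.013). The differences of klf2a, klf2b, KLF4, edn1 and both KLF11 rows stayed below 0 under every pseudocount, scaling and left-out library tried. For all of these but KLF4 the groups did not overlap. No pseudocount or left-out library could therefore have changed their sign, and this is no added evidence of a difference. With 1 library left out they ranged from -1.5 to -0.45 for klf2a, -1.43 to -0.63 for klf2b, -0.60 to -0.0086 for KLF4 and -2.27 to -0.72 for edn1. List medians relative to all genes that changed sign with 1 library left out ranged from -0.34 to 0.32 for the flow sensors, -0.46 to 0.16 for the Mekk3 pathway and -0.39 to 0.12 for the other Klf genes. The ranges were -0.84 to 0.0037 for the immediate early genes, -0.64 to 0.16 for endothelial markers, -1.81 to 0.21 for muscle and -0.020 to 0.99 for the neutrophil and macrophage markers. The causes were not tested. Depth is unknown, and 2 libraries per group limit every value.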
